A study of Rattus norvegicus with 2 samples.

Results

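Endothelins and adrenomedullin are vasoactive peptides of the vessel wall. Transcript levels of the genes for these peptides, for the converting enzyme of endothelin and for their receptors were read in cultured rat endothelial cells from the endocardium, the lining of the heart chambers, and from the aorta. Of 7 genes listed by symbol, 5 (Edn1, Edn3, Ece1, Adm and Calcrl) had at least 1 probe set whose platform annotation gave that symbol alone, which makes 8 probe sets of 7006 with a single symbol and 5 genes of 4736 on the array. No probe set was paired with the endothelin receptor genes Ednra and Ednrb by this rule, and both are not analysed here.

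Per the labels, cells of each origin came from the same 2 rats, were pooled by origin, and were grown for 2 passages with culture conditions and confluence matched as closely as could be done. Total RNA of the endocardial cells was read on 1 Affymetrix rat U34A array and that of the aortic cells on another. Neither culture carried a treatment or a genetic change per the labels; strain, sex and age are not given in the sources used here. With 1 array per group, the differences below have no replicate check and carry no p-value. In RNA from a whole culture, a smaller share of cells that express a gene and less RNA per cell cannot be told apart.

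As background, endothelin 1 is secreted by endothelial cells and constricts the smooth muscle beneath them, and in the heart it also raises the force of contraction. The peptide is cut from a longer precursor, first by furin-type convertases and then by endothelin converting enzyme 1, and acts through the receptors ETA and ETB. Adrenomedullin relaxes vessels and strengthens the endothelial barrier. Its receptor consists of Calcrl, a G protein coupled receptor, and a RAMP protein that sets which peptide the receptor binds.

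The probe set of Adm had a scaled intensity of 6641.7 on the endocardial array, against 2075.5 on the aortic array. The endocardial value was 3.20-fold higher, a log2 ratio of 1.68. The probe set of Edn1 had 4094.4 on the endocardial and 1874.0 on the aortic array, 2.18-fold higher (log2 ratio 1.13). Among the listed genes, both measured ones for secreted peptides thus differed by 2-fold or more, brighter in the endocardial culture.

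Against a floor of 635.4, the median of all scaled intensities, 4 of the 5 genes were measured on at least 1 array. In the endocardial culture 2 of these were higher by 2-fold or more, as were 5.93% of the 2935 measured genes, and 0 were lower by as much, as were 4.16%. The median log2 ratio was 0.62 over the 4 genes and -0.02 over all 2935. The ratio of Adm ranked 57th and that of Edn1 135th from the highest. In mean log2 intensity of both arrays, Adm ranked 866th, Ece1 1086th, Edn1 1125th and Calcrl 2010th from the brightest, which ranks probe sets and not amounts of transcript.

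**Figure D1:**
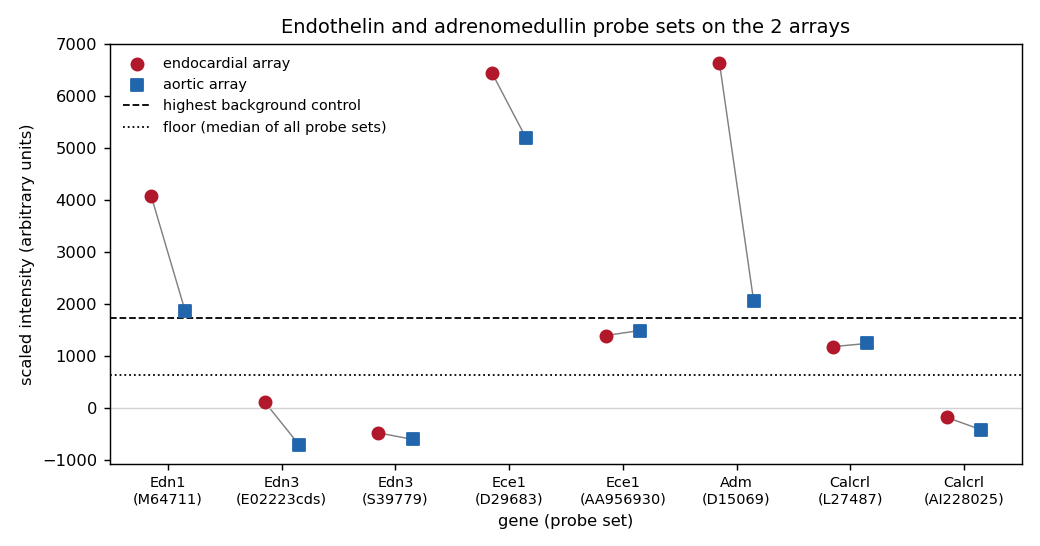
Scaled intensity (vertical axis, arbitrary units) of each endothelin and adrenomedullin probe set, with 1 point per array: endocardial as a circle on the left, aortic as a square on the right. The dashed line is the brightest of 38 background controls (1742.3) and the dotted line the floor (635.4); the probe sets of Edn1 and Adm and the first of Ece1 lie above the dashed line on both arrays.

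How near these values lay to background was read from 38 control probe sets for opposite strands and for bacterial, yeast and mouse sequences. The brightest of these, called the brightest control from here on, reached 1742.3, on the endocardial array, and the next reached 1626.7. The endocardial value of Adm was 3.81 times that control and its aortic value 1.19 times. For Edn1 the endocardial value was 2.35 times and the aortic value 1.08 times the control. The aortic values of both peptide genes therefore sat just over the brightest control. With the floor raised to that control, 3 of the genes were measured and the same 2, Adm and Edn1, passed 2-fold, beside 3.99% of 1904 genes higher and 2.36% lower.

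The difference between arrays was also set beside that of the controls. Endocardial minus aortic intensity was 4566.2 for Adm and 2220.4 for Edn1. Over the 38 controls this difference had an SD of 334.1 and reached at most 1168.3 in size. These controls were dim, with median intensities of 22.9 on the endocardial and 72.0 on the aortic array. A difference in intensity can grow with brightness, so their range sets no limit for brighter probe sets. Probe set Z78279_at of Col1a1, for example, had 73113.3 on the endocardial and 78607.3 on the aortic array at a log2 ratio of -0.1. Among probe sets of the same gene, the log2 ratio had an SD of 0.394 over 625 genes. The log2 ratios of Adm and Edn1 exceeded this SD, as any gene past 2-fold must, so that adds no support. The SD pools probe sets of all brightness above the floor and holds no difference between cultures of the same origin. It also takes in probe sets named after the same sequence, such as X55660_at (0.91) and X55660_g_at (0.83) of Furin. Probe sets of 1 gene can lie farther apart, as those of Gnas did, from -1.81 to 0.03. Adm and Edn1 rested on 1 probe set each.

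**Figure D2:**
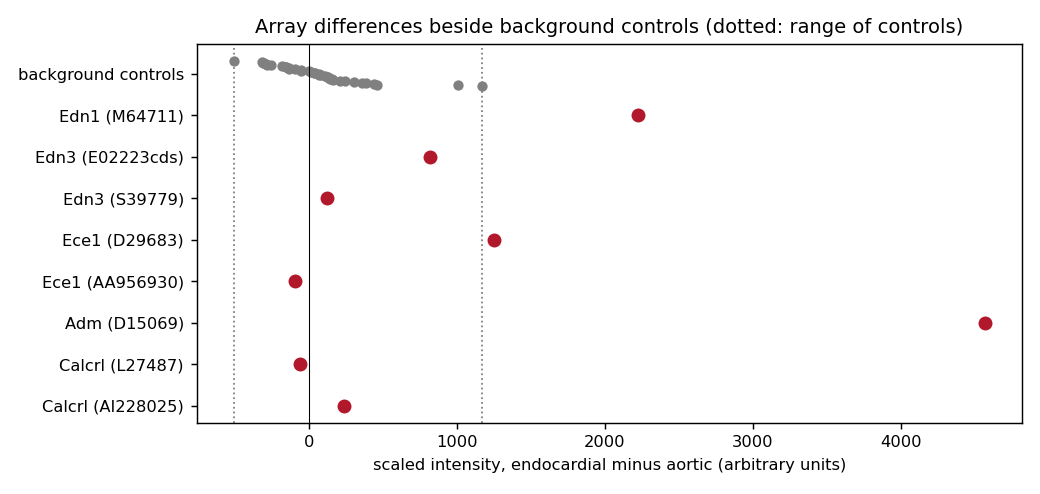
Scaled intensity on the endocardial minus that on the aortic array (horizontal axis, arbitrary units) for the 38 background controls (grey, top row) and the endothelin and adrenomedullin probe sets (red). Adm, Edn1 and the first probe set of Ece1 (1252.9) lie beyond the range of the controls. The other 5 lie inside it. The controls are dim, so this range sets no limit for brighter probe sets.

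Edn1 encodes the precursor of endothelin 1. Its log2 ratio, from probe set M64711_at alone, stayed positive in each of the 8 alternative settings, from 0.67 to 1.16. The lowest was found with the floor at the 75th percentile (2576.1), which is above the aortic value, so that the ratio there is a bound. No rescaling, no floor, the floor at the brightest control and the brightest probe set could not move the ratio beyond rounding. The promoter is shown because Edn1 passed 2-fold. The 250 bases before the transcript start in RefSeq, on GRCr8 at chr17:22666688-22666937, minus strand, are printed 5′ to 3′, with capitals marking the motifs searched.

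Edn1: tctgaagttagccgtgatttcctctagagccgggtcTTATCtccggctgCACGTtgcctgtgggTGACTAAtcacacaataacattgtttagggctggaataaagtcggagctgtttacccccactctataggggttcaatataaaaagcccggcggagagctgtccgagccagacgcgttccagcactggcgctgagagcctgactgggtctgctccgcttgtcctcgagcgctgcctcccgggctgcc

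The capitals mark 3 motifs on this window. GATAA, the core read by GATA factors, lay on the opposite strand at bases -214 to -210 from the start. ACGTG, the core of the hypoxia response element, lay on the opposite strand at -201 to -197, and TGACTAA, a sequence like that read by AP-1, on the same strand at -186 to -180. No 2 of these overlapped. Of 33469 RefSeq promoter windows of the same length, searched on both strands, 23.5% held GATAA, 16.6% held ACGTG and 1.99% held TGACTAA. The AP-1 sequence TGANTCA, found in 6.34% of windows, was not among the letters of the Edn1 window.

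Adm encodes the precursor of adrenomedullin, whose gene responds to low oxygen and to inflammatory signals. Its probe set, D15069_s_at, carries a suffix for probes that can match more than 1 transcript. The log2 ratio was at least 1.37 in each of the 8 alternatives and reached 1.71, though the settings that could not move Edn1 could not move it. The lowest again came with the floor at the 75th percentile, above the aortic value, and is a bound. The corresponding window of Adm lies on GRCr8 at chr1:174179950-174180199, plus strand, and is shown for comparison with Edn1.

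Adm: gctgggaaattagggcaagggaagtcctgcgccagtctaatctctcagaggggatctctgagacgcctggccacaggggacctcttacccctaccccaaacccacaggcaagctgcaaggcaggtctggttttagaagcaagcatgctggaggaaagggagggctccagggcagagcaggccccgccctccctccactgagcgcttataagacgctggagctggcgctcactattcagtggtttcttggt

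None of the 4 motifs occurred in these 250 bases, so the window has no capitals. That says only that the letters are not in this window. Promoters of 6 of the 7 listed genes were in the RefSeq table. Besides Edn1, the gene with a match among them was Calcrl, with GATAA.

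Edn3 encodes endothelin 3, which acts mainly through ETB and is needed for neural crest cells of the gut and skin. Probe set S39779_at had intensities of -468.5 on the endocardial and -594.6 on the aortic array. Probe set E02223cds_f_at, whose suffix marks probes shared by a sequence family, had 124.4 on the endocardial and -693.4 on the aortic array. All 4 values were under the floor, no fold is given, and the differences of 126.1 and 817.9 were within the range of the background controls.

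Ece1 encodes endothelin converting enzyme 1, the membrane protease that releases the active peptide. Probe set D29683_at had 6447.1 on the endocardial and 5194.2 on the aortic array, 1.24-fold higher (log2 ratio 0.31), and both values exceeded the brightest control. Probe set rc_AA956930_s_at had 1402.9 on the endocardial and 1498.5 on the aortic array, a log2 ratio of -0.10, with both values below the brightest control. The probe sets of Ece1 thus gave ratios of opposite sign, both smaller than the spread between probe sets of a gene. The median over both was a log2 ratio of 0.11, and 37.1% of measured genes had a higher one.

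Calcrl encodes the receptor that binds adrenomedullin or calcitonin gene-related peptide. Probe set L27487_at had 1190.1 on the endocardial and 1250.1 on the aortic array, a log2 ratio of -0.07. Of the 38 background controls, 2 were brighter on each array, so the ratio does not show equal expression. Probe set rc_AI228025_s_at was below 0 on both arrays, at -172.1 on the endocardial and -406.9 on the aortic array. Transcripts of Calcrl were therefore not resolved from background with these probe sets.

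**Figure D3:**
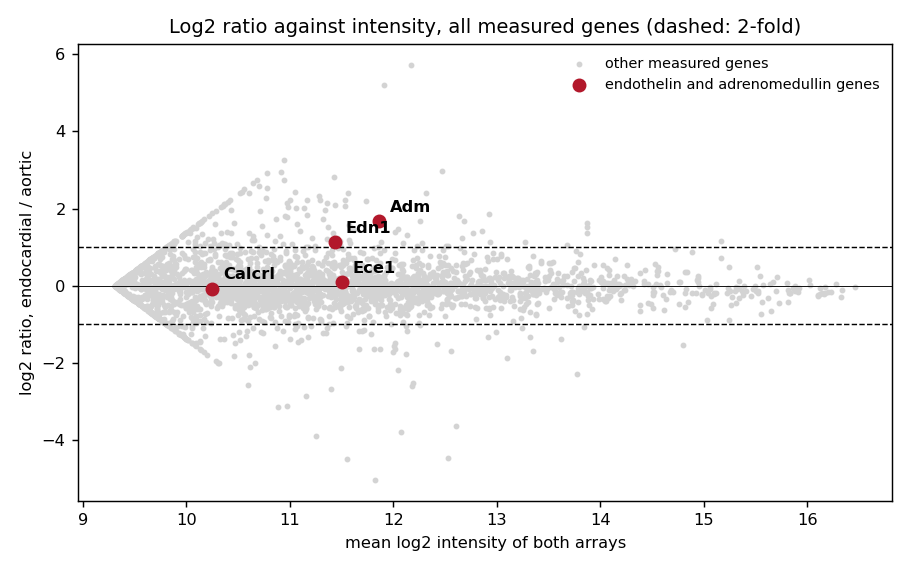
Log2 ratio, endocardial over aortic (vertical axis), against the mean log2 intensity of both arrays (horizontal axis) for 2935 measured genes, with values under the floor set to it. Adm (1.68) and Edn1 (1.13) lie above the upper dashed line of 2-fold, and Ece1 (0.11) and Calcrl (-0.07) lie near 0.

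Genes that act with these peptides were read from 5 lists holding 78 genes, of which 60 were on the array and 44 were measured. Of the 44, 2 were higher in the endocardial culture by 2-fold or more, and 3 were lower by as much. These shares, 4.55% and 6.82%, were near those of all measured genes, 5.93% higher and 4.16% lower. Of the other 39, 29 lay within 2-fold with each measured probe set above the floor on both arrays. The other 10 had a probe set at or under the floor on 1 array, which for most leaves a bound that does not place them within 2-fold. Fos and Gata4 differ, both named after their values were seen. Fos still lay within 2-fold by its other probe sets. Those of Gata4 gave bounds of opposite sign, 2.2 (L22761_at) and -1.23 (rc_AI234969_s_at). The median log2 ratio was 0.08 with values under the floor set to it. When the floor was raised to the brightest control, 25 were measured, of which 0 passed 2-fold upward and 2 downward, namely Ackr3 and Hif1a, beside 3.99% of all genes upward and 2.36% downward.

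Among other peptides and receptors of the same families, 5 of 8 genes on the array were measured, 0 were at least 2-fold higher and 1 was lower. Ackr3, a scavenger receptor that takes up adrenomedullin as well as chemokines, had an intensity of -361.7 on the endocardial and 9344.0 on the aortic array. That is at least 14.7-fold lower against the floor, and at least 5.36-fold lower where the floor is the brightest control. Gpr182, once described as an adrenomedullin receptor in rat, had 2016.5 on the endocardial and 2514.7 on the aortic array, a log2 ratio of -0.32. Edn2, which encodes endothelin 2, had 897.1 on the endocardial and 723.3 on the aortic array, both below the brightest control (log2 ratio 0.31). Crcp, a component of receptor signalling for calcitonin gene-related peptide (0.83), was also below it in both cultures, as was the gene of that peptide, Calca (-0.29), the last measured gene of the list, named after its values were seen. Ramp1, Ramp2 and Ramp3, partners of Calcrl, had no probe set paired with their symbol alone and are not analysed here.

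Of the processing, amidation and clearance genes, 6 of 8 on the array were measured, with 0 at least 2-fold higher and 1 lower. Furin, which makes the first cut in the endothelin precursor, was higher with both of its probe sets. X55660_at had 3108.5 on the endocardial and 1654.9 on the aortic array (log2 ratio 0.91), and X55660_g_at had 6258.7 on the endocardial and 3532.6 on the aortic array (log2 ratio 0.83). Both ratios were under 2-fold, and the aortic value of X55660_at was below the brightest control. The probe sets are named after the same sequence, so they are not independent readings. Pcsk6, another convertase of the furin family, had 1524.9 on the endocardial and 825.7 on the aortic array (log2 ratio 0.88), both below the brightest control. Pcsk5, of the same family, had 1502.2 on the endocardial and 3065.9 on the aortic array (log2 ratio -1.03). Its endocardial value was below the brightest control, and with the floor raised to that control the log2 ratio was -0.82. Mme, the neutral endopeptidase that degrades both peptides, was under the floor on the endocardial array (372.7) and below the brightest control on the aortic array (1082.9).

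Pam, which amidates adrenomedullin at its end and so completes the active peptide, was named after its values were seen. Of 7 probe sets, 3 were measured, and each was brighter on the endocardial array. E03428cds_s_at had 13656.6 on the endocardial and 4130.6 on the aortic array (log2 ratio 1.73), while rc_AA891068_f_at (0.69) and rc_AA799575_f_at (0.47) were under 2-fold. The 3 measured probe sets of Pam thus agreed in sign and not in size, and the other 4 were under the floor on both arrays. The suffix of E03428cds_s_at is for probes that can match more than 1 transcript, and _f_at marks probes shared by a sequence family. Named after the same sequence as rc_AA799575_f_at, rc_AA799575_i_at had -631.8 on the endocardial and 334.6 on the aortic array. For rc_AA799575_r_at the values were -106.5 and 257.8. Whether the measured signal came from Pam alone was not tested.

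Downstream of the receptors, 8 of 10 G protein and desensitisation genes were measured and 0 passed 2-fold. Within 2-fold lay 6, with log2 ratios from -0.09 to 0.55, and the ratios of Arrb2 and of Grk2, named after its values were seen, were bounds. At the ends of the range stood Grk5, a kinase that desensitises receptors (0.55), Grk6 (-0.09) and Gnas, the G protein subunit that couples adrenomedullin receptors to adenylyl cyclase (-0.09). One probe set of Gnas had a log2 ratio of -1.81, and the values of Grk5 were below the brightest control in both cultures. Arrb2, an arrestin, was at least 1.40-fold higher against the floor, with both of its probe sets under the floor on the aortic array and below the brightest control on the endocardial array. Of 21 second messenger genes on the array, 14 were measured, with 1 at least 2-fold higher and 0 lower. That gene was Prkcd, a protein kinase C, with M18330_g_at at 4336.6 on the endocardial and 1515.5 on the aortic array (log2 ratio 1.52) and M18330_at at 2102.2 on the endocardial and 1348.7 on the aortic array (0.64). Prkcd fell short of 2-fold when the floor was raised to the brightest control (log2 ratio 0.79). Adcy2, an adenylyl cyclase, had a log2 ratio of 0.88 and lay below that control in both cultures, the cyclase gene Adcy3 had -0.50, and Itpr3, a calcium release channel opened after endothelin receptors signal, had -0.68.

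Of 13 genes on the array for transcription factors known to act on Edn1 or Adm, 11 were measured, of which 1 was past 2-fold upward and 1 downward; their median log2 ratio was 0.04. Hif1a, the oxygen-regulated factor that induces Adm, had 2031.5 on the endocardial and 6347.4 on the aortic array, a log2 ratio of -1.64. Its partner Arnt had 1188.5 on the endocardial and 1861.9 on the aortic array (log2 ratio -0.65), with the endocardial value below the brightest control. Transcripts of Hif1a and of Adm thus differed in opposite directions between these arrays; the activity of the factor, which oxygen sets mainly through its protein, was not measured. Jun, part of AP-1, had 1391.5 on the endocardial array and 572.0, under the floor, on the aortic array for the 1 measured probe set of 4, at least 2.19-fold higher, with both values below the brightest control. Vezf1, an endothelial zinc finger factor that acts on the Edn1 promoter, had a log2 ratio of 0.71.

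**Figure D4:**
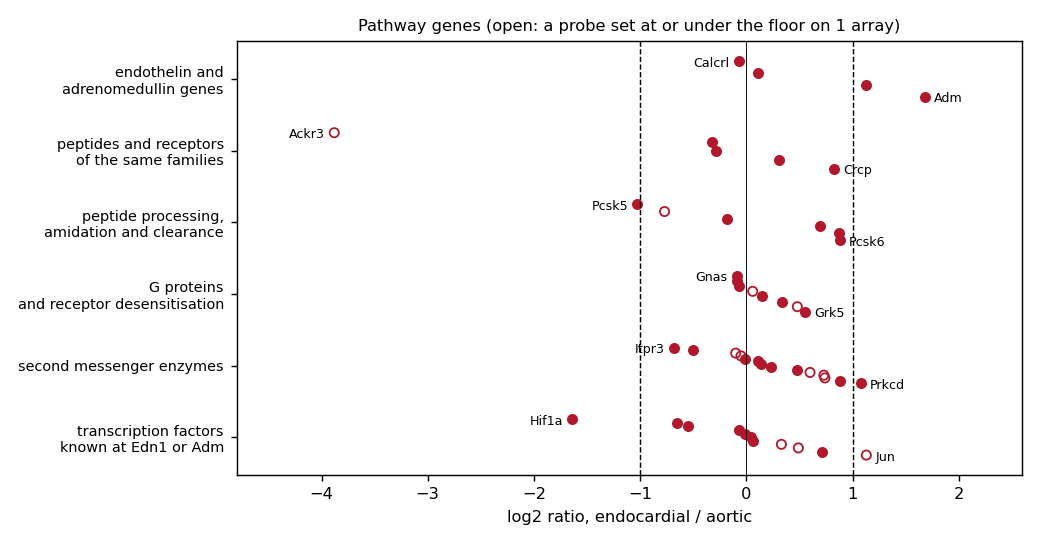
Log2 ratio, endocardial over aortic (horizontal axis), of each measured gene in the lists named on the vertical axis, with the lowest and highest gene of each list labelled and dashed lines at 2-fold. Open circles mark genes with a probe set at or under the floor on 1 array; Ackr3 (-3.88) and Hif1a (-1.64) lie farthest to the left.

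Markers of cell types differed between the arrays beside Edn1 and Adm. Of 8 endothelial marker genes on the array, 4 were measured, with 0 at least 2-fold higher and 1 lower, while Vwf, Pecam1, Kdr and Icam2 were under the floor on both arrays. Of the 4 measured, Flt1 and, by the median over its measured probe sets, Nos3 lay below the brightest control on both arrays. Ace, the lower gene (log2 ratio -1.16), lay below it on the endocardial array, and Thbd (-0.46) lay above it on both. The endothelial identity of both cultures rests on the labels. Adrenomedullin is also made by cell types other than endothelial cells. With values under the floor set to it, the summed intensity of the 8 measured smooth muscle markers was 186603.2 on the endocardial and 124932.7 on the aortic array, with 2 of 8 at least 2-fold higher and 1 lower. For the 7 measured macrophage and leukocyte markers of 8 on the array it was 47482.3 on the endocardial and 7594.0 on the aortic array, with 5 higher and 0 lower, most of it Lyz2 (33617.7 on the endocardial array); Csf1r was under the floor on both arrays. The 10 fibroblast markers summed to 269678.4 on the endocardial and 327506.0 on the aortic array, with 1 higher and 2 lower. For 5 measured cardiomyocyte markers of 8 on the array the sums were 5779.2 on the endocardial and 6349.7 on the aortic array, with 0 higher and 1 lower, and Nppb, Actc1 and Myl2 were under the floor on both. Of all 2935 measured genes, 5.93% were past 2-fold upward and 4.16% downward with the same floor. The 5 macrophage and leukocyte markers past 2-fold were Lyz2, Ctss, Cd53, Cd74 and Fcgr2b. Each had a probe set under the floor on the aortic array, for Cd74 3 of its 4, so their folds rest on bounds. When the floor was raised to the brightest control, 1 of 5 measured macrophage and leukocyte markers (Lyz2) was past 2-fold upward. Of 8 smooth muscle markers, 1 (Myl9) was. In both lists 0 were past it downward. Of 10 fibroblast markers, 1 was past it upward (Postn) and 2 downward (Dcn and Lox). Past it in either direction were 0 of 3 endothelial markers and 0 of 1 cardiomyocyte marker. Over all 1904 genes measured with that floor, 3.99% were higher and 2.36% lower. The part of these cell types in the values of Edn1 and Adm was not tested.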

How the data were processed

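The deposited table holds 1 linear intensity per probe set and array, for 2 arrays; the labels and file headers name no software that made these intensities. The 59 control probe sets were set aside, and the 8740 others were scaled to a shared 2% trimmed mean (factors 0.9994 for the endocardial and 1.0006 for the aortic array). Values under the floor were set to it, and probe sets that exceeded it on neither array counted as not measured. A gene's log2 ratio, endocardial over aortic, was the median over its measured probe sets. A fold with the dimmer value at or under the floor is a lower bound. Symbols came from the platform annotation (7006 probe sets with 1 symbol, 6985 matched by gene identifier to RefSeq GRCr8, 0 changed). Calculations used Python 3.11.15 with numpy 2.4.6, pandas 2.3.3 and statsmodels 0.14.6 (loess, span 0.4). The counting step was tested on simulated data, with changes well past 2-fold planted in bright probe sets only. That test does not cover changes near 2-fold or values near background. With 1 array per group no test was possible, and the number of arrays limits the precision. Genes and lists were chosen with earlier results of these data known. Genes named from the 5 pathway lists were the 2 highest and 2 lowest of each, all those past 2-fold, and genes marked as named after their values were seen; marker lists are given by counts and sums, with examples chosen after their values were seen. Protein sequences that had been planned were not used here. Alternatives were no rescaling, quantile normalization, median centring, loess, 3 other floor settings and the brightest probe set of each gene.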

Additional observations from a re-analysis of the deposited data

How the results depend on the processing

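Across 8 alternatives, Adm stayed past 2-fold, higher in the endocardial culture (log2 ratio 1.37 to 1.71), and 0 of the endothelin and adrenomedullin genes were at least 2-fold lower. Edn1 stayed past 2-fold in 7 of the 8. No rescaling, no floor, the floor at the brightest control and the brightest probe set could not move either gene beyond rounding. The log2 ratios there were again 1.68 for Adm and 1.13 for Edn1, so these settings add nothing to the check. With the floor at the 75th percentile (2576.1) the log2 ratio of Edn1 was 0.67. There 1 gene, Adm, was past 2-fold, since the aortic value of Edn1 lies under that floor. Ece1 ranged from 0.10 to 0.31 in log2 ratio, and Calcrl from -0.10 to -0.02 in the 6 alternatives that measured it. Counts over all genes followed the floor: 76 higher and 45 lower with the floor raised to the brightest background control, 45 higher and 40 lower at the 75th percentile, and 342 higher and 410 lower with no floor, against 174 and 122. Values near that control are what signal over background limits most here, the aortic values of Edn1 and Adm among them. No paired analysis was possible because each group has 1 array.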
